A study of Mus musculus with 4 samples.

Results

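Proteasome transcripts were measured in sorted skeletal progenitors from the hindlimbs of newborn mice. The members are the 45 protein-coding genes of the count table whose names begin with Psma, Psmb, Psmc, Psmd or Psme followed by a number, out of 55487 genes listed, and all 45 passed the filter on low counts that left 16157 genes to test. They fall into 7 alpha subunits of the 20S core, 4 beta subunits without and 3 with catalytic activity, the 3 induced catalytic subunits of the immunoproteasome, 2 tissue-restricted core subunits, 6 ATPases and 11 non-ATPases of the 19S cap, 3 chaperones of cap assembly and 5 genes of the activators that can replace the cap. The pattern also took in Psmc3ip, a meiotic recombination factor that is not a subunit of the proteasome.

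Cells were sorted from the hindlimbs of pups at postnatal day 1 as live cells with the GFP reporter of Prx1-cre, a recombinase driven in limb mesenchyme, and without the surface proteins CD45, Tie2 and Ter119. There were 2 libraries of polyadenylated RNA labelled WT (numbered 2 and 3) and 2 labelled cKO (numbered 2 and 3), and no libraries numbered 1 were analysed here. In the study, cKO stands for mice that lose floxed Ecsit, the gene of a mitochondrial complex I assembly factor, through Prx1-cre, and WT for mice with Prx1-cre and intact Ecsit, all on the Rosa26mTmG reporter that turns GFP on where Cre acts. The genotype field goes against the titles. It gives EcsitPrx1;Rosa26mTmG for the libraries titled WT and Ecsitfl/fl;Rosa26mTmG, with no Cre, for those titled cKO, although cells without Cre would lack the GFP by which they were sorted. Groups here follow the titles, so that all directions given would turn if the labels were exchanged. Whether a library holds 1 animal or a pool is not given in the sources used here, so a p-value speaks only of the spread among these libraries.

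Ecsit itself stood at 12.6 (WT 2), 18.8 (WT 3), 33.6 (cKO 2) and 30.2 CPM (cKO 3), where CPM are counts scaled to a common library size, which is higher in the libraries labelled cKO (log2 fold change 1.02, standard error 0.25, edgeR adjusted p = 0.0245). This goes against the label, so the groups are called the libraries labelled WT and labelled cKO throughout.

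Total counts ran from 18266573 to 20152872 a library. Genes of cytosolic ribosomal proteins took 3.21% and 6.31% of the counts in WT 2 and WT 3 and 10.2% in both libraries labelled cKO. WT 3 stood closer to the libraries labelled cKO than WT 2 did in this share. The libraries of a label also differed in sex-linked genes: Xist was read at 1118 CPM in WT 2 and 188 CPM in cKO 3, and Ddx3y at 76.1 CPM in WT 3 and 53.4 CPM in cKO 2. Of the markers of the sorted cells, Prrx1 lay between 194 and 264 CPM and Col1a1 between 28239 and 31668 CPM. Of the 6 progenitor markers none passed edgeR's test, but 2 were lower at an unadjusted p under 0.05 and DESeq2 called 1 lower. Their median log2 fold change (labelled cKO minus WT) was -0.31. Twist2 was read at 57.3 (WT 2), 153 (WT 3), 56.7 (cKO 2) and 43.3 CPM (cKO 3), and Pdgfra in the same order at 480, 371, 291 and 296 CPM. Ptprc, which encodes the CD45 of the gate, was at most 0.168 CPM. Tek, which encodes the Tie2 of the gate, was read at 28.8 to 39.6 CPM. Of 6 erythroid markers tested 5 were higher in the libraries labelled cKO, against 14.1% of all genes tested. The erythroid list summed to 1912 and 2016 CPM there, against 603 and 682 CPM in the libraries labelled WT. Of 5 muscle markers tested 3 were higher (14.1% of all genes tested), with sums of 77.0 and 81.7 CPM against 12.2 and 12.8 CPM. Of 10 haematopoietic markers tested 5 were higher and 1 was lower, against 14.1% and 14.3% of all genes tested. The haematopoietic sums were 21.0 and 24.0 CPM against 16.0 and 19.6 CPM. In that list Cd3e was at 0 in all 4 libraries and S100a9 in both labelled WT. Of 6 endothelial markers none passed edgeR's test (1 at an unadjusted p under 0.05, and none in DESeq2), with sums of 48.7 to 57.7 CPM over the 4 libraries. The part of these cells in the values that follow was not tested, and in bulk RNA fewer cells of a type and less RNA per cell cannot be told apart.

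The proteasome degrades proteins that carry ubiquitin. Its core, the 20S particle, is a stack of rings in which beta rings with the catalytic sites lie between alpha rings that form the gate. The 19S cap binds the ubiquitin, removes it, unfolds the protein with a ring of ATPases and feeds it into the core. In cells exposed to interferon gamma, induced catalytic subunits can replace the constitutive ones, and the PA28 activator can take the place of the cap. Transcription of the core and cap genes is raised together by the factor NFE2L1 when proteasome activity is low.

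Many proteasome transcripts were higher in the libraries labelled cKO, with calls in the alpha ring, the beta ring and the cap. The activators had 1 call in each direction. Of the 45 members, 16 were higher and 1, Psme4, was lower at an adjusted p under 0.05, against 14.1% higher and 14.3% lower of all genes tested. The share of members called higher was 35.6%. The median log2 fold change (labelled cKO minus WT) was 0.60 over the members and -0.02 over all genes tested. Levels in the libraries labelled cKO lay above both libraries labelled WT for 35 members, and below both for 4, against 36.3% and 36.2% of all genes tested. The 35 include Psme2b, and the 4 include Psma8, Psmb8 and Psmb11, all with few counts. Among the 39 members with at least 100 counts in every library, 33 lay above and 1 below. Of the 14 constitutive core genes 9 were higher, with fold changes from 0.38 to 1.34 on the log2 scale, and of the 17 cap genes 4 were higher, with fold changes from -0.0049 to 1.18. Not every member could be read with equal precision. In every library 39 members had at least 100 counts, whereas Psma8, Psmb8, Psmb9, Psmb11 and Psme2b had 23 counts or fewer in each and Psmc3ip lay between. Of these, Psma8 and Psmb11 passed the filter through the libraries labelled WT, where they were higher, and Psme2b through those labelled cKO.

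**Figure D1:**
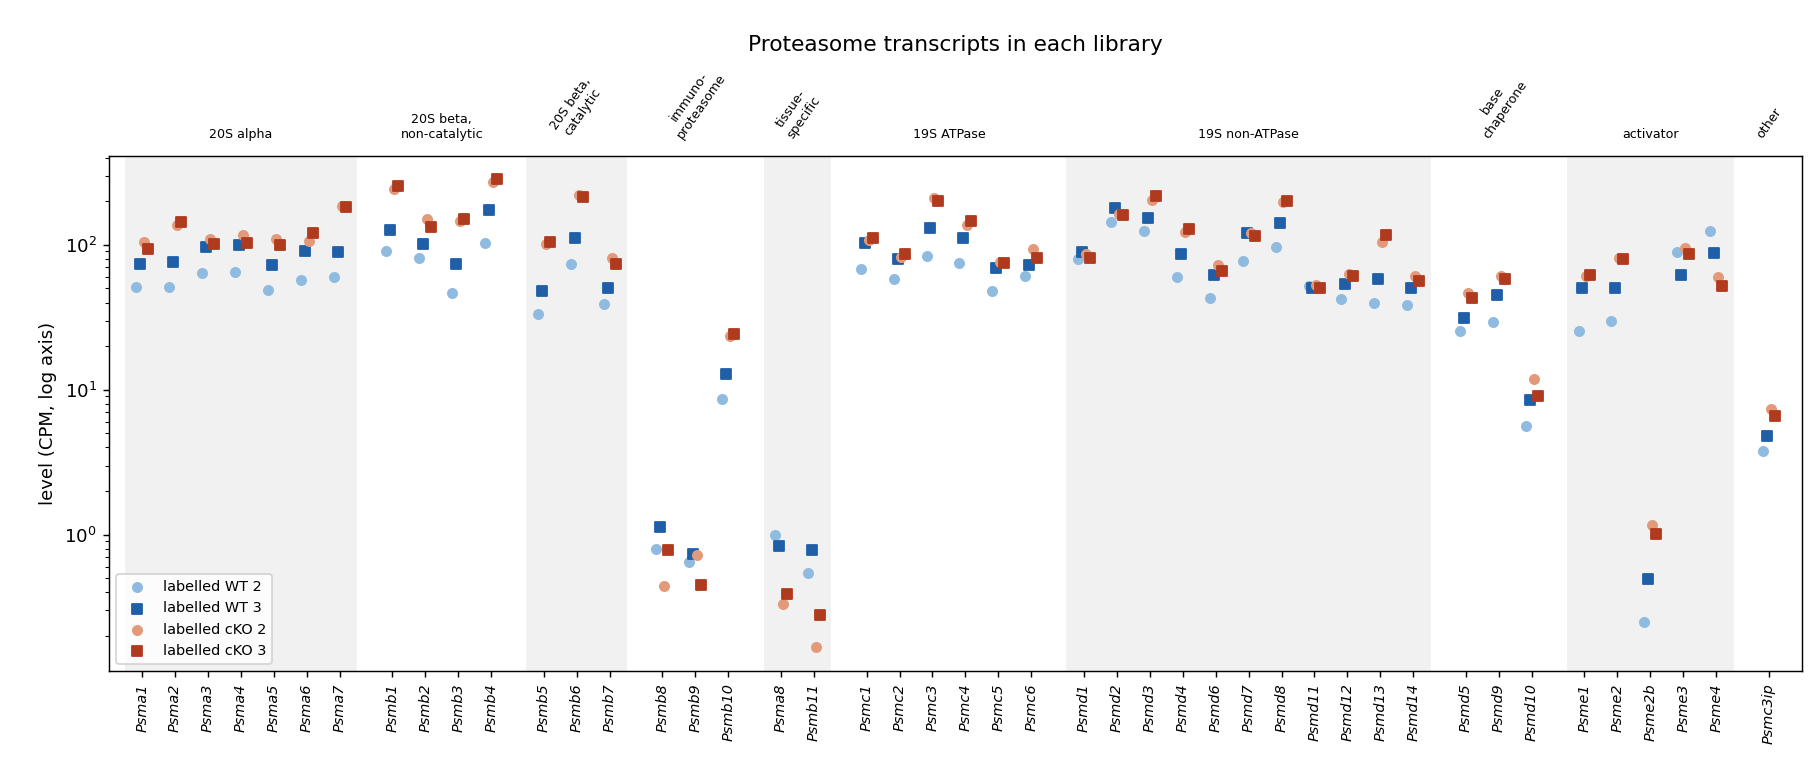
Level of each of the 45 members in each of the 4 libraries, in CPM on a log axis, with the genes ordered by role along the horizontal axis. Constitutive core and cap genes lie between 33.3 (Psmb5 in WT 2) and 283 CPM (Psmb4 in cKO 3) with WT 2 lowest for most of them, and Psmb8, Psmb9, Psma8, Psmb11 and Psme2b lie near 1 CPM or under.

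The libraries labelled WT did not stand together. WT 3 lay above WT 2 for 41 of the 45 members, with a median difference of 0.53 on the log2 scale, while 52.7% of all genes tested were higher in WT 3, with a median difference of 0.05. For 37 members, WT 3 lay between WT 2 and the mean of the libraries labelled cKO, as it did for 60.0% of all genes tested. The libraries labelled cKO were close, with a median difference of -0.04 between cKO 3 and cKO 2. Without cKO 2, and likewise without cKO 3, the members called higher were Psma7, Psmb3 and Psmb5 alone, against 3.37% and 3.31% of all genes tested. Psme4 was then no longer called, with 4.15% and 5.73% of all genes called lower and 1 member lower at an unadjusted p under 0.05 in edgeR (DESeq2 on all 4 libraries called 1). Without WT 3 there were 36 members called higher and 1 lower (28.4% and 26.8% of all genes tested), and without WT 2 there were 22 and 1 (20.4% and 17.7%). With no filter on low counts, 8 members were higher and 0 lower, against 2.77% and 2.12% of all genes (24 and 2 members at an unadjusted p under 0.05 in edgeR). The medians over the members in these 4 fits ran from 0.40 to 0.89.

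Catalytic subunits of the core were all higher in the libraries labelled cKO, by 1.73-fold (Psmb7) to 2.54-fold (Psmb5). Of all genes tested 14.1% were called higher. Psmb5, which carries the chymotrypsin-like site, was read at 33.3 (WT 2), 47.7 (WT 3), 101 (cKO 2) and 104 CPM (cKO 3). The means were 40.5 ± 10.2 and 103 ± 2.24 CPM (SD, n = 2), and its log2 fold change of 1.34 (standard error 0.23, edgeR adjusted p = 0.0140) was the highest among the core and cap genes. Psmb6, with the caspase-like site, was read at 73.3 (WT 2), 112 (WT 3), 219.7 (cKO 2) and 214 CPM (cKO 3) (log2 fold change 1.23, standard error 0.25, edgeR adjusted p = 0.0172). Psmb7, with the trypsin-like site, was read in the same order at 39.2, 50.0, 81.1 and 73.6 CPM (log2 fold change 0.79, standard error 0.21, edgeR adjusted p = 0.0291). For all 3, both libraries labelled cKO lay above both labelled WT, as for 36.3% of all genes tested. WT 2 was the lowest library each time. Without cKO 2, or without cKO 3, the call stood for Psmb5 (adjusted p = 0.0335 and 0.0384) and not for Psmb6 (0.0700 and 0.0590) or Psmb7 (0.304 and 0.216). The log2 fold changes in these fits were 1.19 and 1.21 for Psmb6 and 0.71 and 0.83 for Psmb7. Per kilobase of principal transcript, Psmb6 had the highest level of all 45 members in the libraries labelled cKO, at 272 CPM per kilobase.

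The promoters of Psmb5, Psma7, Psmb3 and Psmb6 are printed because these are the members with the smallest p among those whose promoter holds a match of a motif searched. Each is the 250 bases before the RefSeq start on GRCm38.p6, written 5′ to 3′ on the strand of the gene, and the capitals mark the matches. Psmb5 lies at chr14:54617996-54618245 (minus strand), Psma7 at chr2:180042465-180042714 (minus strand), Psmb3 at chr11:97703184-97703433 (plus strand) and Psmb6 at chr11:70525107-70525356 (plus strand).
Psmb5: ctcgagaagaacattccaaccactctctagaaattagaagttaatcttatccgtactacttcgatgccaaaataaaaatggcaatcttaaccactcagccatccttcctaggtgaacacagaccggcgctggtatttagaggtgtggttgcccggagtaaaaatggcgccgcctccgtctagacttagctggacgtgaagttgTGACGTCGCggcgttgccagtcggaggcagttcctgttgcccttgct
Psma7: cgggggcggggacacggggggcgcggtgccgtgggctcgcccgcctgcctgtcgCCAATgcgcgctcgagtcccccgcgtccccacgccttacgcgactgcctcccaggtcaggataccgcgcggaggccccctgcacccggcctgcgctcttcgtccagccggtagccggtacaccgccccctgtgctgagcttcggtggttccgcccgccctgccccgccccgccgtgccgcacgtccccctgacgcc
Psmb3: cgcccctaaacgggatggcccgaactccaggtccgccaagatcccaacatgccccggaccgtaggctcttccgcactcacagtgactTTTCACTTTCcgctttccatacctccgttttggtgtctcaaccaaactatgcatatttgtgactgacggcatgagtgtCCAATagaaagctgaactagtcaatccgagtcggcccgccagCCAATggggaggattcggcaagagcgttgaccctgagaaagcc
Psmb6: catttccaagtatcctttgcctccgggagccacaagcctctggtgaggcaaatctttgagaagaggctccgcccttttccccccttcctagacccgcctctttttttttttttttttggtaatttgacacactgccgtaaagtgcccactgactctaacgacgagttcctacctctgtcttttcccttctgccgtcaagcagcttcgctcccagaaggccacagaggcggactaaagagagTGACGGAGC
The motifs were searched on both strands. They were TGACNNNGC, the core of the antioxidant response element to which NFE2L1 and NFE2L2 bind with small MAF proteins, CCAAT, the box of NF-Y, and GAAA followed after any 2 bases by GAAA, the core of the interferon-stimulated response element. Counted back from the base before the start, the antioxidant core began at -47 in Psmb5 and at -9 in Psmb6, CCAAT at -196 in Psma7 and at -85 and -43 in Psmb3, and the interferon-stimulated core, on the other strand, at -163 in Psmb3. No 2 matches overlapped in these 4 promoters. Over the 38 members searched, the antioxidant core was found in 5 (13.2%), Psmb5, Psmb6, Psmc6, Psmd9 and Psmd12, against 11.5% of 27025 genes. Of those 5, Psmb5 and Psmb6 were called higher, as were 11 of the 33 members with no match. CCAAT was found in 15 of the 38 (39.5%, against 37.5% of all genes), and the interferon-stimulated core in 3 (7.9% against 3.5%), Psmb3, Psmd4 and Psmd9. Psma8, Psmb1, Psmb2, Psmb7, Psmc3, Psmd3 and Psmd7 were not searched. A match is a run of letters in the reference and not a measured binding site.

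Of the 4 beta subunits without catalytic activity 3 were higher, against 14.1% of all genes tested. Psmb3 was read at 46.8 (WT 2), 74.0 (WT 3), 146 (cKO 2) and 149.8 CPM (cKO 3), a log2 fold change of 1.29 (standard error 0.25, edgeR adjusted p = 0.0162). Psmb1 was read in the same order at 90.1, 127, 242 and 253 CPM (log2 fold change 1.19, standard error 0.23, edgeR adjusted p = 0.0164). Psmb4 was read in the same order at 104, 174, 272 and 283 CPM (log2 fold change 1.00, standard error 0.27, edgeR adjusted p = 0.0318). Psmb2 was read in the same order at 80.8, 102, 151 and 133 CPM, and its log2 fold change of 0.64 did not pass edgeR's test (adjusted p = 0.0505), while DESeq2 gave an adjusted p of 0.04. In all 4, both libraries labelled cKO lay above both labelled WT, as in 36.3% of all genes tested. The constitutive beta ring thus had 6 of 7 genes called higher (85.7%, against 14.1% of all genes tested), with a median log2 fold change of 1.19. Without cKO 2, or without cKO 3, of these 7 Psmb3 and Psmb5 were called.

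In the alpha ring 3 of 7 genes were higher, against 14.1% of all genes tested, with the largest changes in Psma7 and Psma2. Psma7 was read at 60.0 (WT 2), 89.9 (WT 3), 187 (cKO 2) and 184 CPM (cKO 3), with means of 74.9 ± 21.1 and 185 ± 1.95 CPM (SD, n = 2) and a log2 fold change of 1.30 (standard error 0.24, edgeR adjusted p = 0.0152). Psma2 was read in the same order at 51.4, 76.3, 137 and 143 CPM (log2 fold change 1.13, standard error 0.23, edgeR adjusted p = 0.0177). Psma5 was read in the same order at 48.8, 73.2, 109.9 and 99.8 CPM (log2 fold change 0.78, standard error 0.24, edgeR adjusted p = 0.0422). Psma1, Psma3, Psma4 and Psma6 did not pass, with log2 fold changes from 0.38 (Psma3, adjusted p = 0.244) to 0.66 (Psma1, adjusted p = 0.0609), while DESeq2 gave Psma1 an adjusted p of 0.0487. All 7 alpha genes lay higher in both libraries labelled cKO than in either labelled WT, as did 36.3% of all genes tested. All 7 also had WT 3 above WT 2, by a median of 0.58 on the log2 scale. For Psma3 and Psma4 the gap between WT 3 and cKO 3 was small, at 97.04 against 101 CPM and 99.0 against 104 CPM. Without cKO 2, or without cKO 3, of the alpha genes Psma7 alone was called.

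Immunoproteasome subunits stood far apart in level. Psmb10, which replaces Psmb7, was read at 8.66 (WT 2), 12.9 (WT 3), 23.6 (cKO 2) and 24.1 CPM (cKO 3) (log2 fold change 1.14, standard error 0.25, edgeR adjusted p = 0.0197). The call was lost without cKO 2 and without cKO 3, where the log2 fold changes were 1.14 and 1.10. Psmb8, which replaces Psmb5, had 16, 23, 8 and 14 counts in WT 2, WT 3, cKO 2 and cKO 3, or 0.445 to 1.13 CPM, and was not called (log2 fold change -0.64, standard error 0.53, edgeR adjusted p = 0.374). Psmb9, which replaces Psmb6, had 13, 15, 13 and 8 counts (log2 fold change -0.24, standard error 0.53, edgeR adjusted p = 0.747). Its groups overlapped, and at 8 to 15 counts a library a small change in Psmb9 could not be told from the spread.

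Each induced subunit was set against the constitutive subunit that it replaces, as a ratio of counts per kilobase of principal transcript within a library. Psmb8 stood at 1.32% of Psmb5 in WT 2 (95% exact Clopper-Pearson interval 0.75 to 2.16%) and 1.31% in WT 3 (0.825 to 1.97%), and at 0.243% in cKO 2 (0.105 to 0.479%) and 0.415% in cKO 3 (0.226 to 0.698%). The 4 intervals, which cover counting error only, did not overlap between the labels. Psmb9 stood at 0.521% and 0.387% of Psmb6 in WT 2 and WT 3 and at 0.194% and 0.123% in cKO 2 and cKO 3. Here the intervals of WT 3 (0.216 to 0.64%) and cKO 2 (0.103 to 0.332%) overlapped. Psmb10 stood at 19.6% and 22.9% of Psmb7 in WT 2 and WT 3 and at 25.8% and 29.0% in cKO 2 and cKO 3. On the log2 scale the ratios differed by -2.05 (Psmb8), -1.54 (Psmb9) and 0.37 (Psmb10), labelled cKO minus WT. Fold changes fell with exon length over all protein-coding genes, as given below, and division by a fixed length does not take out that trend. Exons spanned 3381 bases in Psmb8 and 899 in Psmb5, 3660 in Psmb9 and 1872 in Psmb6, and 1705 in Psmb10 and 3421 in Psmb7. The part of length in these ratios was not tested. An exact permutation test over the libraries, two-sided, gave p = 0.333 for each of the 3, which is the smallest that 2 against 2 libraries allow, so this design could not pass a threshold of 0.05 for them.

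**Figure D2:**
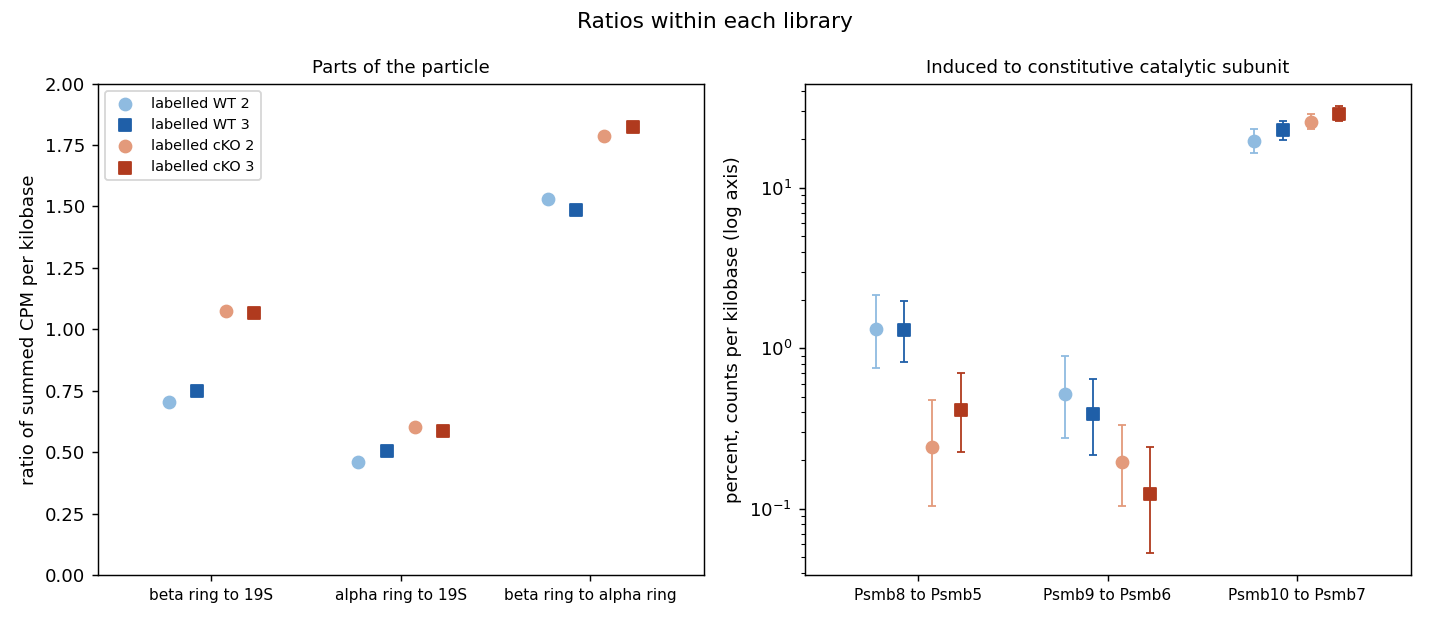
Ratios within each of the 4 libraries: on the left the summed CPM per kilobase of the constitutive beta ring, the alpha ring and the 19S cap, each set over another, and on the right each induced catalytic subunit as a percentage of the constitutive one on a log axis, with 95% Clopper-Pearson intervals as bars. The beta ring stands at 0.706 and 0.748 of the cap in WT 2 and WT 3 and at 1.07 in both libraries labelled cKO.

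Core subunits restricted to other tissues were at the edge of detection. Psma8, the alpha subunit of germ cells, had 20, 17, 6 and 7 counts in WT 2, WT 3, cKO 2 and cKO 3 (log2 fold change -1.32, edgeR adjusted p = 0.0927). Psmb11, the catalytic subunit of cortical thymic epithelium, had 11, 16, 3 and 5 counts (log2 fold change -1.55, edgeR adjusted p = 0.0946). Neither was called, and both had to be higher in the libraries labelled WT to pass the filter.

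ATPases of the cap showed 1 call among 6 (16.7%), near the 14.1% of all genes tested that were called higher. Psmc3 was read at 83.6 (WT 2), 131 (WT 3), 211 (cKO 2) and 201 CPM (cKO 3) (log2 fold change 0.94, standard error 0.25, edgeR adjusted p = 0.0303). The call was lost without cKO 2 and without cKO 3, where the log2 fold changes were 0.89 and 0.94. Psmc4 was read in the same order at 75.0, 112, 137 and 147 CPM, and its log2 fold change of 0.60 did not pass (edgeR adjusted p = 0.0875). Psmc1, Psmc2, Psmc5 and Psmc6 had log2 fold changes from 0.29 to 0.38 and did not pass. All 6 lay higher in both libraries labelled cKO than in either labelled WT, as did 36.3% of all genes tested. For Psmc2 the gap was narrow, with 79.5 CPM in WT 3 against 82.1 CPM in cKO 2. The ring of ATPases is built from equal numbers of these 6 subunits, and their levels per kilobase of principal transcript ran from 29.8 (Psmc6) to 65.5 (Psmc3) CPM per kilobase in the libraries labelled WT and from 38.8 (Psmc6) to 126 (Psmc3) in those labelled cKO.

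Among the 11 non-ATPases, 3 were higher (27.3%, against 14.1% of all genes tested) and 8 did not pass. Psmd13, a subunit of the lid, was read at 39.6 (WT 2), 57.7 (WT 3), 105 (cKO 2) and 116 CPM (cKO 3) (log2 fold change 1.18, standard error 0.23, edgeR adjusted p = 0.0167). Psmd4, a ubiquitin receptor, was read in the same order at 59.5, 86.2, 123 and 128 CPM (log2 fold change 0.78, standard error 0.23, edgeR adjusted p = 0.0377). Psmd8, of the lid, was read in the same order at 96.7, 142, 197 and 201 CPM (log2 fold change 0.74, standard error 0.23, edgeR adjusted p = 0.0484). None of the 3 was called without cKO 2 or without cKO 3. The log2 fold changes in these fits were 1.24 and 1.07 for Psmd13, 0.79 and 0.72 for Psmd4, and 0.74 and 0.69 for Psmd8.

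Fold changes of the scaffold subunits of the base lay close to 0 on the log2 scale. Psmd1 was read at 79.8 (WT 2), 88.6 (WT 3), 86.1 (cKO 2) and 81.8 CPM (cKO 3), a log2 fold change of -0.0049 (standard error 0.19, edgeR adjusted p = 0.986). Psmd2 was read in the same order at 144, 178, 164 and 160.0 CPM (log2 fold change 0.01, standard error 0.21, edgeR adjusted p = 0.975). Psmd11, of the lid, was read between 50.4 and 53.1 CPM in all 4 libraries (log2 fold change 0.01, standard error 0.19, edgeR adjusted p = 0.966). In these 3 and in Psmd7 the groups overlapped. Psmd14, the deubiquitinase of the lid, was read in the same order at 38.3, 50.4, 61.1 and 56.2 CPM and did not pass (log2 fold change 0.40, edgeR adjusted p = 0.178). The other lid subunits Psmd6, Psmd7 and Psmd12 had log2 fold changes from 0.26 to 0.39, and Psmd3 one of 0.60 (edgeR adjusted p = 0.0606, DESeq2 adjusted p = 0.0479).

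Whether the parts of the particle kept their proportions was read as ratios of summed CPM per kilobase of principal transcript within a library, a measure chosen after the values were seen and given with no test. The constitutive beta ring stood at 0.706 and 0.748 of the 19S cap in WT 2 and WT 3 and at 1.07 in both cKO 2 and cKO 3. In this ratio WT 3 lay between WT 2 and the libraries labelled cKO. The difference on the log2 scale was 0.56, with SDs of 0.06 and 0.01 between the libraries labelled WT and labelled cKO. It ran from 0.52 to 0.60 without each library in turn, with exon length in place of transcript length and with no division by length. None of these settings takes out the trend of fold change with exon length given below. The median exon length was 1951 bases in the beta ring and 2820 in the cap, and its part in this ratio was not tested. The alpha ring stood at 0.461 and 0.504 of the cap in WT 2 and WT 3 and at 0.602 and 0.585 in cKO 2 and cKO 3. The beta ring stood at 1.53 and 1.49 of the alpha ring in WT 2 and WT 3 and at 1.79 and 1.82 in cKO 2 and cKO 3.

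Chaperones that assemble the base were measured beside the subunits, and 1 of 3 was called higher, against 14.1% of all genes tested. Psmd5 was read at 25.2 (WT 2), 31.4 (WT 3), 46.5 (cKO 2) and 43.0 CPM (cKO 3) (log2 fold change 0.66, standard error 0.21, edgeR adjusted p = 0.0490). This call was lost under both other scalings (edgeR adjusted p = 0.0501 in each), with no filter (0.0894) and with at least 10 counts in every library (0.0583). It was also lost without cKO 2 and without cKO 3, where the log2 fold changes were 0.58 and 0.68. Psmd9 (log2 fold change 0.67, edgeR adjusted p = 0.0693) and Psmd10 (0.56, 0.183) were not called.

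Among the 5 activator genes 1 was higher and 1 was lower, against 14.1% and 14.3% of all genes tested. Psme2, a subunit of PA28, was read at 29.9 (WT 2), 50.1 (WT 3), 81.0 (cKO 2) and 80.0 CPM (cKO 3) (log2 fold change 1.01, standard error 0.26, edgeR adjusted p = 0.0287). Its partner Psme1 was read in the same order at 25.5, 50.4, 60.8 and 61.5 CPM, and its log2 fold change of 0.69 did not pass (standard error 0.31, edgeR adjusted p = 0.120). Psme4, which encodes the nuclear activator PA200, was read at 124 (WT 2), 88.2 (WT 3), 59.8 (cKO 2) and 52.4 CPM (cKO 3), with means of 106 ± 25.6 and 56.1 ± 5.25 CPM (SD, n = 2). Its log2 fold change was -0.92 (standard error 0.23, edgeR adjusted p = 0.0247). The libraries labelled cKO lay below both of the others, as for 36.2% of all genes tested. Psme3, of the nuclear PA28 ring, was read at 88.7 (WT 2), 61.9 (WT 3), 94.8 (cKO 2) and 86.3 CPM (cKO 3), with groups that overlapped (log2 fold change 0.26, edgeR adjusted p = 0.390). Psme2b, a copy of Psme2, had 5, 10, 21 and 18 counts and was not called (edgeR adjusted p = 0.0679), and reads could have been split between it and Psme2. The calls of Psme2 and Psme4 were lost without cKO 2 and without cKO 3. The log2 fold changes in these fits were 0.985 and 0.986 for Psme2 and -1.04 and -0.87 for Psme4. Psmc3ip, outside the particle, was read in the same order at 3.78, 4.82, 7.40 and 6.61 CPM (log2 fold change 0.70, edgeR adjusted p = 0.0944).

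**Figure D3:**
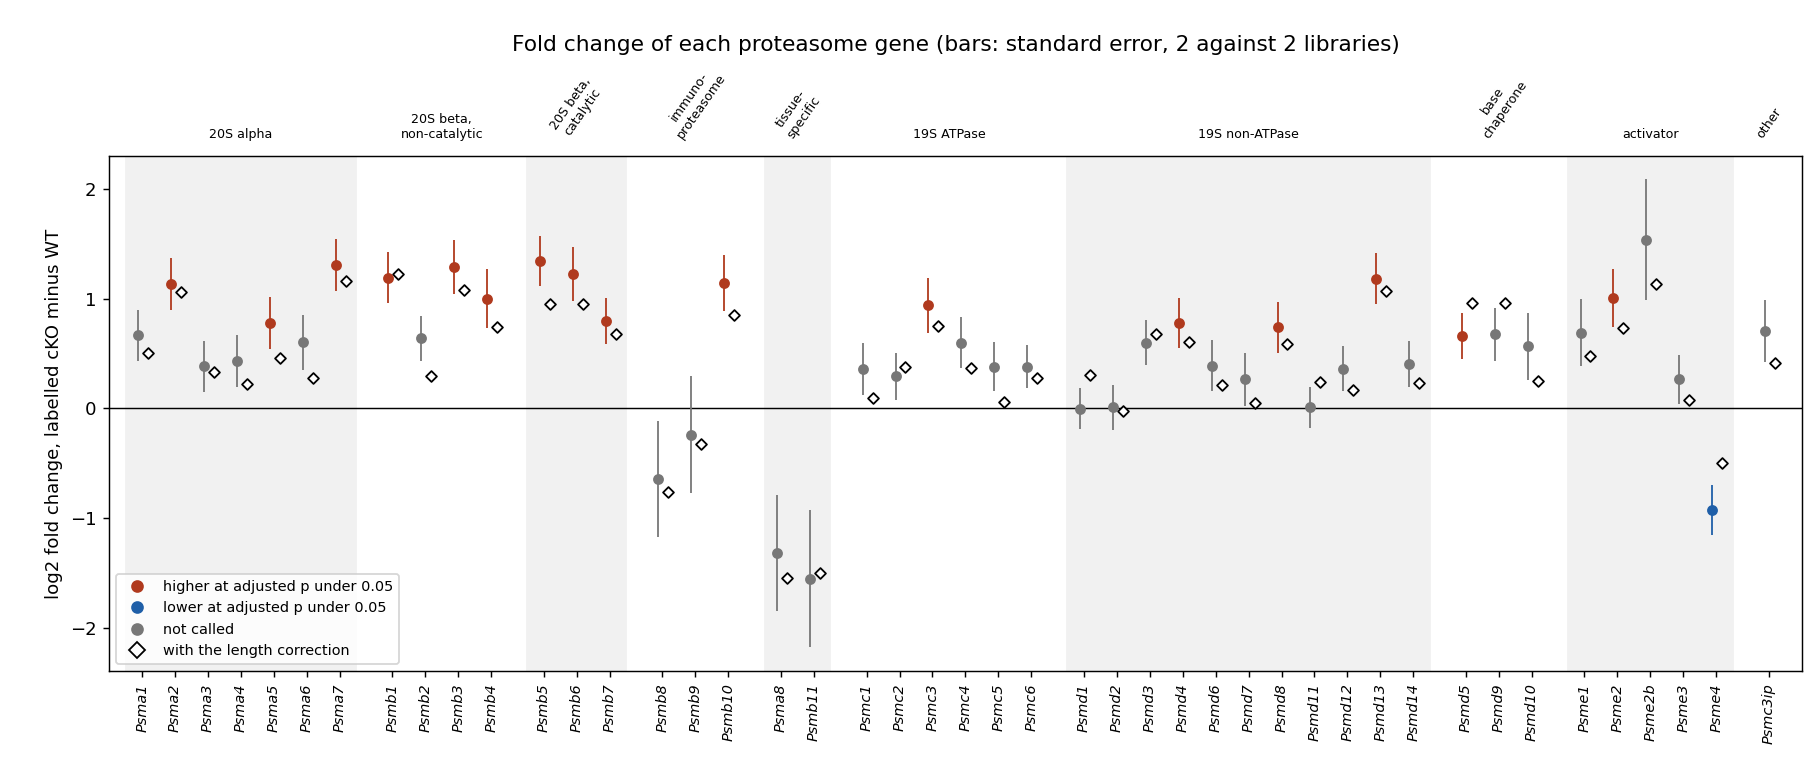
Log2 fold change of each of the 45 members, labelled cKO minus WT, with bars of 1 standard error (2 against 2 libraries), and the value after a correction for exon length as open diamonds. Psmb5, Psma7, Psmb3, Psmb6, Psmb1, Psmd13 and Psma2 lie highest among the core and cap, Psmd1, Psmd2 and Psmd11 lie at 0, and Psme4 is called lower.

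Fold changes ran with gene length over the whole transcriptome, and the members are read here against that trend. Spearman's rho between log2 fold change and union exon length was -0.49 across 13888 protein-coding genes and -0.41 across the 45 members. Genes are not independent replicates, and all points share the same 4 libraries. In 10 groups of protein-coding genes by exon length, the median log2 fold change ran from 0.73 in the shortest to -0.76 in the longest. Of the 45 members 28 lay in the 3 shortest groups, and 30 lay above the median of their own length group. In the shortest group 5 of 10 members lay above its median of 0.73, among them Psmb5, Psmb10 and Psme2. In the second group, with exons of 1829 to 2543 bases and a median of 0.44, 5 of 9 members lay above it. In the third group, with exons of 2544 to 3164 bases and a median of 0.32, 8 of 9 lay above it. Psmb1, with 4595 bases and a log2 fold change of 1.19, lay in a group with a median of -0.07. Psme4, with 8382 bases and a log2 fold change of -0.92, lay in a group with a median of -0.46.

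With exon length as a correction in each library, 17 members were higher and 1 was lower, against 17.0% and 12.3% of all genes tested, and the median over the members was 0.38 in place of 0.60. The beta ring kept 6 genes called with a median of 0.95, and the cap had 5 called with a median of 0.28. Psma5 was no longer called (adjusted p = 0.0662), whereas Psmd3 (log2 fold change 0.67, adjusted p = 0.0258) and Psmd9 (0.96, adjusted p = 0.0245) were. Psme4 stayed lower, at -0.50 (adjusted p = 0.0481). Psmd1 moved from -0.0049 to 0.30 and was not called (adjusted p = 0.228).

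**Figure D4:**
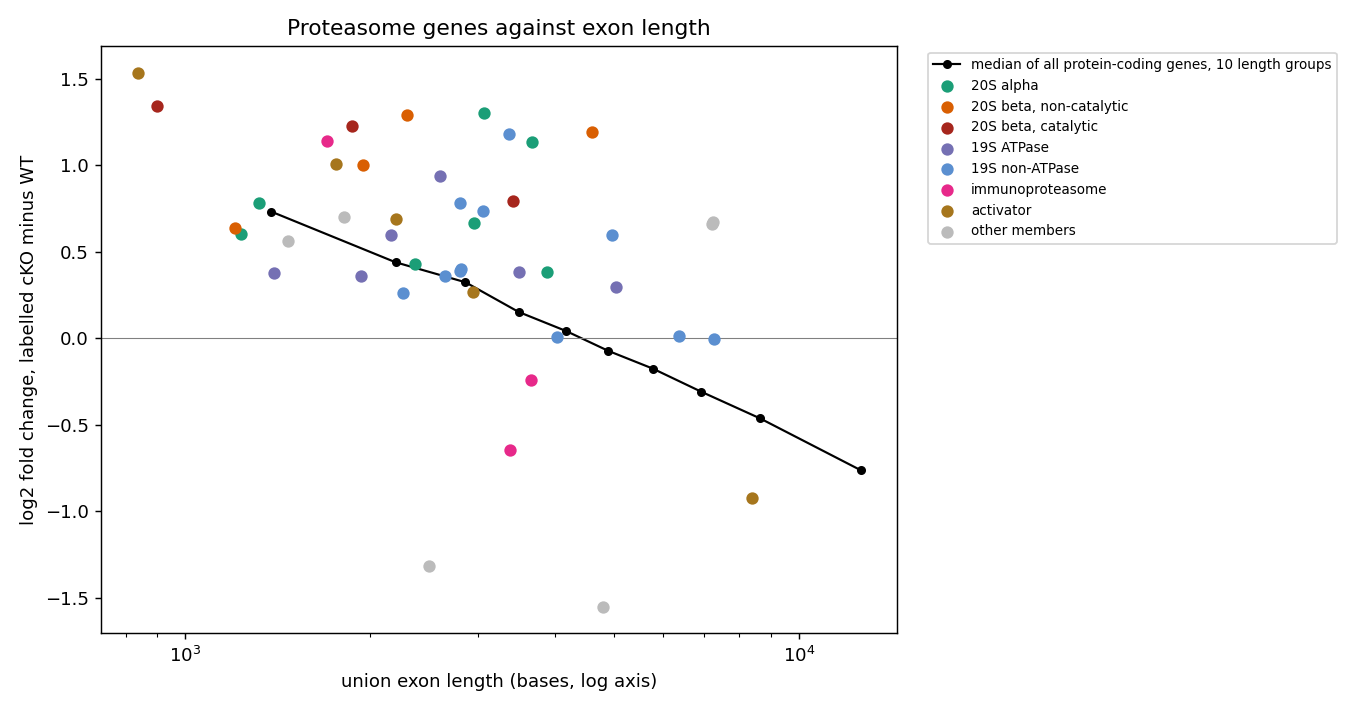
Log2 fold change (labelled cKO minus WT) of each member against union exon length on a log axis, coloured by role, with the median of all protein-coding genes in 10 length groups as a black line. The line falls from 0.73 to -0.76, the genes of the beta ring other than Psmb2 lie above it, and Psme4 lies below it.

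Some members share exons with a neighbour, and the library kit as described does not mark strand, so reads of both cannot be told apart there. The shared stretch was largest for Psmd9 with the long noncoding Gm26745 (25.5% of its exon bases), Psmc3ip with Mlx (21.2%), Psmb8 with Gm20496 (14.7%), Psmb5 with Mir686 (12.1%), Psmb7 with Nek6 (11.8%), Psmd13 with Sirt3 (10.1%) and Psmc3 with Slc39a13 (8.2%). Psmb9 shared 5.8% with Tap1 on the other strand.

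Other genes of the pathway were read from lists of further subunits and bound proteins, assembly factors, regulators, ubiquitin genes, antigen processing and interferon signaling. Of 8 further subunits and bound proteins of the proteasome, 1 was higher and 7 did not pass, against 14.1% higher of all genes tested. This list holds deubiquitinases, a ubiquitin ligase, adaptors and an inhibitor besides subunits. Its median log2 fold change was -0.03, against -0.02 over all genes. The gene called was Sem1, a small subunit of the lid, at 45.0 (WT 2), 77.5 (WT 3), 118 (cKO 2) and 121 CPM (cKO 3) (log2 fold change 0.97, edgeR adjusted p = 0.0335). Of 6 assembly genes (median log2 fold change 0.55) 2 were higher, the core chaperones Psmg3 (log2 fold change 1.45, edgeR adjusted p = 0.0408) and Psmg4 (1.22, edgeR adjusted p = 0.0239). The maturation factor Pomp was read in the same order at 41.1, 71.8, 80.7 and 72.6 CPM and did not pass (edgeR adjusted p = 0.247).

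Of 8 regulators of proteasome transcription 4 were lower and 1 was higher, against 14.3% lower and 14.1% higher of all genes tested. The median log2 fold change over the list was -0.55. The small MAF genes, whose proteins pair with NFE2L1 and NFE2L2 on DNA, were all lower: Maff was read at 114 (WT 2), 132 (WT 3), 44.8 (cKO 2) and 60.5 CPM (cKO 3) (log2 fold change -1.23, edgeR adjusted p = 0.0149). Mafg had a log2 fold change of -1.16 (edgeR adjusted p = 0.0153) and Mafk one of -0.84 (edgeR adjusted p = 0.0257). Ddi2, a protease that activates NFE2L1, was lower at -1.04 (edgeR adjusted p = 0.0323) and was not called with the length correction (-0.51, adjusted p = 0.0788). Keap1, which holds back NFE2L2, was higher (log2 fold change 0.67, edgeR adjusted p = 0.0398). Nfe2l1 itself was read in the same order at 159, 119, 119.9 and 110.1 CPM and did not pass (log2 fold change -0.27, edgeR adjusted p = 0.356).

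Ubiquitin genes included 4 called higher among 16 genes of ubiquitin supply and delivery, against 14.1% of all genes tested. The median log2 fold change of the 16 was 0.18. Ubb, which encodes a chain of ubiquitins, was read at 501 (WT 2), 779 (WT 3), 1529 (cKO 2) and 1565 CPM (cKO 3) (log2 fold change 1.27, edgeR adjusted p = 0.0201). Both libraries labelled cKO lay above both labelled WT for Ubb, as for 36.3% of all genes tested. Rps27a, which encodes ubiquitin joined to a ribosomal protein, was also higher (log2 fold change 1.33, edgeR adjusted p = 0.0344).

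Of 11 genes of antigen processing tested, Tap1, a peptide transporter, was lower (17.4 and 16.1 CPM in WT 2 and WT 3 against 6.56 and 7.40 CPM in cKO 2 and cKO 3, log2 fold change -1.26, edgeR adjusted p = 0.0155), and 10 did not pass. Of 11 interferon signaling genes tested, the kinase gene Jak2 (log2 fold change -1.34, edgeR adjusted p = 0.0139) and the factor Irf1 (-0.92, edgeR adjusted p = 0.0176) were lower and the receptor gene Ifngr2 was higher (1.06, edgeR adjusted p = 0.0149). Over these 6 lists 9 genes were higher and 7 lower of 60 tested, near the shares over all genes tested (14.1% and 14.3%). Without cKO 2, or without cKO 3, 2 were higher and 1 lower (3.37% and 4.15% of all genes without cKO 2, and 3.31% and 5.73% without cKO 3). Without WT 3 there were 22 higher and 17 lower (28.4% and 26.8% of all genes).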

How the data were processed

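Levels of polyadenylated RNA were measured in 4 libraries of sorted skeletal progenitors, 2 labelled WT and 2 labelled cKO. The authors deposited whole-number read counts per gene, not normalized and not pooled. The study's methods describe STAR, mm10, GENCODE vM25 and featureCounts, whereas the submitters' processing notes list GRCh38.p12 with HTSeq 0.11.3, STAR 2.6.1b and DESeq2 1.28.1, and nothing in the table itself tells them apart. Deposited columns that could not be mapped to a library numbered 0.

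Counts were analysed in R 4.3.3 with edgeR 4.0.16: filterByExpr (minimum count 10), TMM scaling, then quasi-likelihood fits on the label alone. Adjusted p-values are Benjamini-Hochberg over 16157 genes, called under 0.05. CPM are counts scaled to the TMM-adjusted library size. Exon lengths come from GENCODE vM21 on GRCm38 (99.5% of gene IDs matched) and promoters from RefSeq. The steps were tested on simulated data.

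Alternatives were DESeq2 (1.42.0, with ashr 2.2.63 for fold changes), other scalings and filters, a fold limit of 1.5, the replicate number as a block, an offset for exon length (lowess of log2 CPM on log10 length, span 0.3, pseudocount 0.5), and leaving out each library, where the lone library is assumed to vary like the other label. Ratios between parts of the particle were added after the values were seen.

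Every member may be named. Of the other lists, up to 4 called genes with the smallest p were named, with Keap1, Nfe2l1 and Pomp added after their values were seen. Some genes of these lists and 1 further promoter motif are not reported here. The members and lists were chosen with earlier results of these data known. With 2 libraries a label, the spread is estimated across genes. The interval of a ratio covers counting error only.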

Additional observations from a re-analysis of the deposited data

How the results depend on the processing

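Among the members, calls of 16 higher and 1 lower stayed within 1.5 times under both other scalings, at least 10 counts in every library, DESeq2 and the length correction (14 to 19 higher). A 1.5-fold limit could not change the calls, because every gene called already passed it. Without a filter on low counts, where 31336 genes were tested, 8 members were higher and 0 lower (24 and 2 at an unadjusted p under 0.05 in edgeR, while DESeq2 after the filter called 19 and 1), 4 genes of the other lists were higher, and 869 and 665 of all genes were called higher and lower. Leaving out each library gave 3 to 36 members higher and 0 to 1 lower (1 or 2 lower at an unadjusted p under 0.05), medians of 0.40 to 0.89, 535 to 4584 of all genes higher and 670 to 4329 lower, and 2 to 22 genes of the other lists higher and 1 to 17 lower. The cause of these shifts was not tested, and the fits without a library rest on 3 libraries.

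The labels share only replicate numbers, and deviations of same-numbered libraries did not go together (correlation -0.09 across genes). With the number as a block, 18 members were higher and 1 lower, with a median of 0.64 (Psma1, Psmd9 and Psme1 called besides, and Psmd5 not, at an adjusted p of 0.0520), and with the block and the length correction 19 were higher and 0 lower (2 lower at an unadjusted p under 0.05), with Psme4 at an adjusted p of 0.0504. The block result is a hint from the data and not from the design.

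Signs turned in genes close to 0. Psmd1 (-0.0049) was 0.033 without a filter, 0.30 with the length correction, 0.31 with the block besides and -0.079 to 0.073 without each library. Psmd2 (0.0096) was -0.0072 under TMM without ribosomal and mitochondrial genes, -0.052 with 10 counts in every library, -0.026 with the length correction, -0.020 with the block besides and -0.14 to 0.17 without each library. Psmd11 (0.012) was -0.0071 under that scaling, -0.052 with 10 counts in every library and -0.045 to 0.035 without each library. Psmd7 ran from -0.020 (without WT 2) to 0.62 (without WT 3), Psmb9 from -0.64 (without cKO 2) to 0.028 (without cKO 3), and the log2 difference of the ratio of PA28 to the core (-0.069) from -0.21 (without WT 2) to 0.070 (without WT 3). The ratio of Psmb8 to Psmb5 differed by -2.44 to -1.66, of Psmb9 to Psmb6 by -1.87 to -1.21 and of Psmb10 to Psmb7 by 0.26 to 0.48. At 23 counts or fewer a library, depth limits Psma8, Psmb8, Psmb9, Psmb11 and Psme2b.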

Other observations

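The table also lists 5 processed pseudogenes named after core subunits. Psma5-ps had 8, 7, 16 and 18 counts in WT 2, WT 3, cKO 2 and cKO 3, against 980 to 1976 counts for its parent Psma5. Psmb6-ps2 had 4 counts in cKO 2 and 2 in cKO 3 and none in the libraries labelled WT, Psmb5-ps and Psmb7-ps2 had 1 count each over the 4 libraries, and Psmb6-ps had none.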
